A study of Mus musculus with 8 samples.

Results

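Genes that mark the GABA-releasing interneurons of the striatum were read in RNA from 4 adult wildtype male mice and 4 adult males labelled Brd2+/-, that is, with a gene-trap vector in 1 copy of Brd2. All probes on the array that the files assign to Lhx6, Lhx8, Pvalb, Nos1, Nkx2-1, Th, Sox6 and Calb2 were taken, each separately. These are 12 probes of 8 genes, out of 39429 probes under 30175 gene names on the array. Nkx2-1 was printed at 10 spots and the other probes at 1 spot each, 21 of 43020 spots. The mice of both groups were C57Bl/6J by repeated backcrossing and came from matings between heterozygotes. The trap is carried by every cell of the animal, and the Brd2 protein, of the bromodomain and extra-terminal family, binds acetylated histones and takes part in transcription.

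Mice of 1 genotype shared an array in pairs, replicates 1 and 2 or replicates 3 and 4, the odd number carrying the dye Cy3 and the even number with Cy5. Genotype therefore varied only between arrays, 2 per group, and what belongs to an array and what belongs to its 2 mice cannot be told apart. The arrays were on 1 slide, from 1 scan. The median spot was 3.75 to 10.5 times as bright as its local background. Between 41.6% and 63.1% of probes were well above background in a sample (lowest in heterozygous replicate 3). No probe, taken over its spots, counted as saturated in any sample. Neither of 2 Brd2 probes was lower in the mice labelled heterozygous (differences of 0.29, SE 0.35, and 0.88, SE 0.28, on the log2 scale, adjusted p = 0.932 and 0.499 with limma). The labels do not place the trap relative to these probes, so the genotypes remain unchecked by them. One label field names the left atrium of the heart in place of the striatum. Ppp1r1b, known as DARPP-32 of striatal projection neurons, had a mean of 16.30 ± 0.50 on the log2 scale in wildtype mice and 16.77 ± 0.28 in mice labelled heterozygous (SD, n = 4 each). Of 8 listed genes of atrial heart muscle, 4 were tested: Myh7 and Myl4, well above background in 8 samples each, and Nppa and Tnnt2, in 7 each. Myl7 and Actc1 were well above background in 0 samples, Myh6 in 1 and Sln in 2. A gene with several probes is counted by the probe with the most such samples.

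Interneurons are a small minority of striatal neurons, and nearly all the other neurons are projection neurons. Most striatal interneurons arise in the medial ganglionic eminence (MGE) of the embryo, where Nkx2-1 starts their programme and acts upstream of the LIM-homeobox factors Lhx6 and Lhx8, with Sox6 acting later. In the adult striatum Pvalb, a calcium buffer, marks fast-spiking cells, Nos1, the neuronal nitric oxide synthase, marks cells that also make somatostatin and neuropeptide Y, Calb2 encodes calretinin, and Th, tyrosine hydroxylase, is made by a further interneuron type. Lhx8 is best known for the cholinergic lineage, so the name of non-cholinergic interneuron genes does not describe it in full. In tissue RNA of this kind, fewer cells of a type and less RNA per cell cannot be told apart.

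The sequences of 4 member probes bear on how their values can be read. The first 3 sequences below are of probes that stayed under the filter on dim probes, shown because they give the stretch of Lhx6, Nos1 or Calb2 that was not tested. The last holds the final 30 bases (positions 31 to 60) of the brightest Lhx6 probe, with its run of alternating A and C in capitals, shown because such runs are found in many transcripts. All are given 5′ to 3′ as in the deposited files, and the sources used here do not place them in an exon or untranslated region.
Lhx6 A_55_P2094149: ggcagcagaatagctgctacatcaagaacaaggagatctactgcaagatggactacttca
Nos1 A_55_P2133795: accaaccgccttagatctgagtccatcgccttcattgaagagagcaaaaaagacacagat
Calb2 A_52_P556433: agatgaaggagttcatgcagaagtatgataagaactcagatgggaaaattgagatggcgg
Lhx6 A_55_P2005903: aACACACACACACACACACACACACACACA

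No interneuron gene passed the test between the genotypes. Levels below are log2 intensity after normalization, and a difference is the level in mice labelled heterozygous minus that in wildtype mice. To be tested, a probe had to stand well above background in 4 or more of the 8 samples and have a value in each, which held for 9 of the 12 member probes and 18399 probes in all. With limma, 0 of the 9 members had an adjusted p under 0.05, against 0% of all probes tested (0 of 18399, lowest adjusted p = 0.437). At an unadjusted p under 0.05 there were 0 members, against 7.96% of all probes. The members' adjusted p ran from 0.689 to 0.991. Of the 9 probes, 7 read higher and 2 lower in the mice labelled heterozygous, with a median of 0.11, whereas 48% of all probes tested read higher and their median was −0.017. The groups had no overlap for 1 of 9 probes, against 16.9% of all probes. All 8 genes are accounted for, and Calb2 is the gene with no probe tested.

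**Figure D1:**
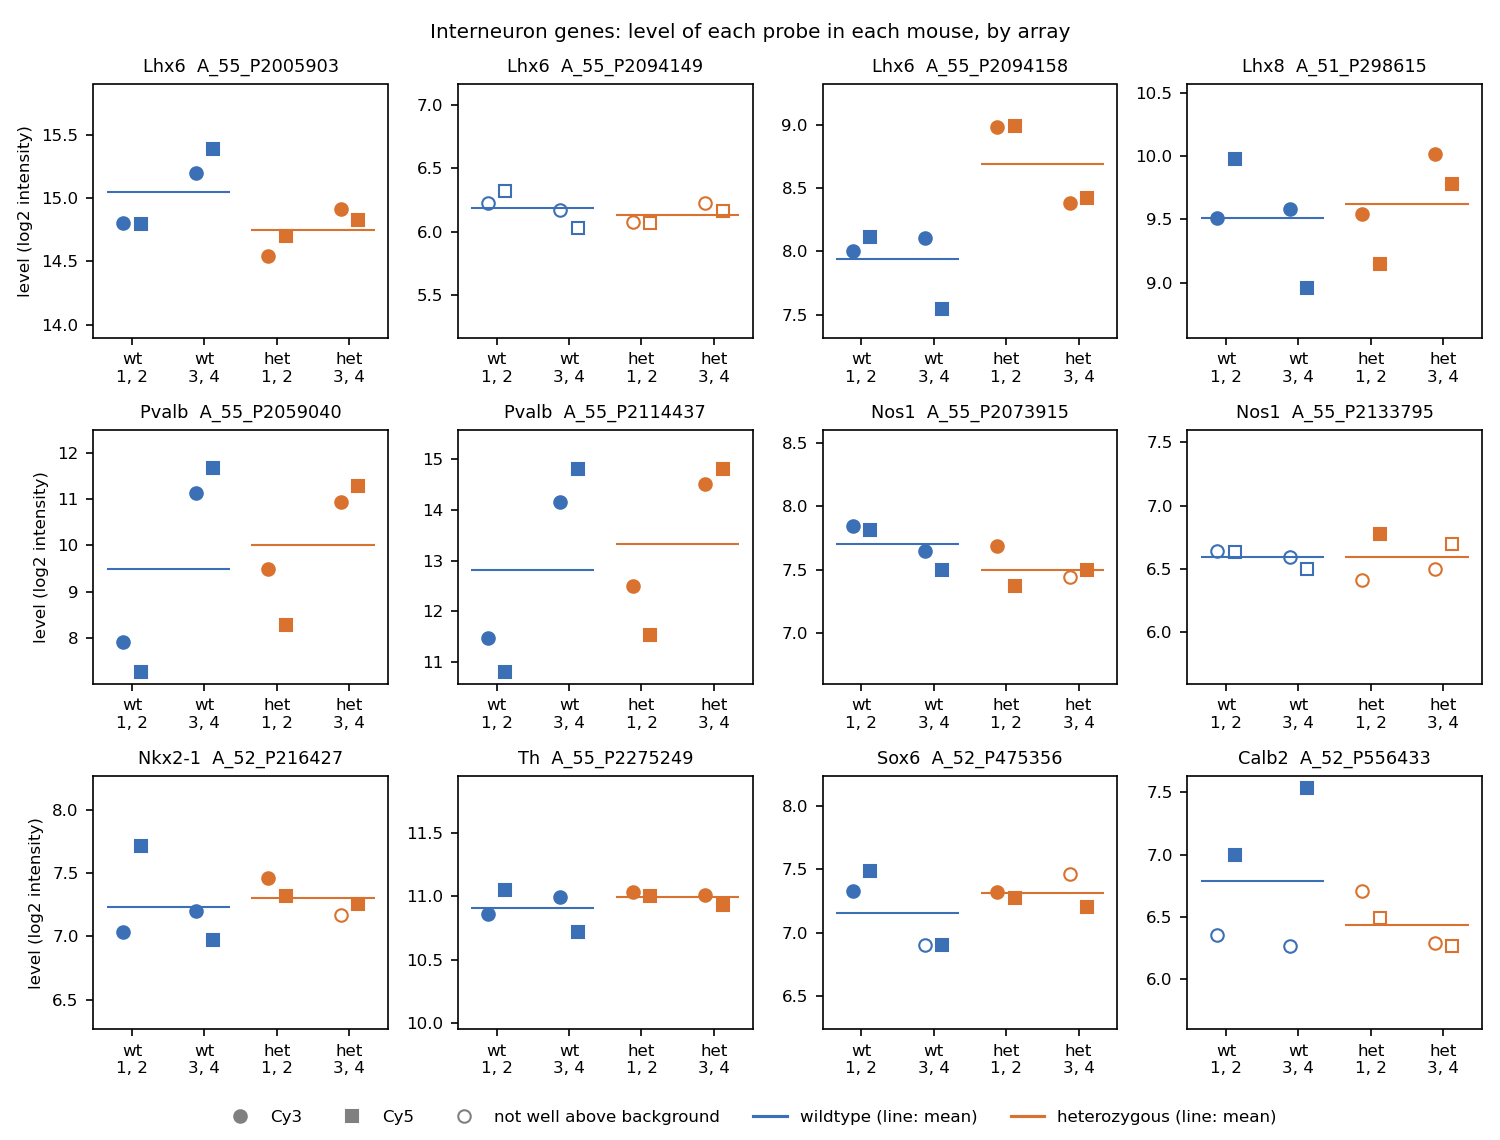
Level of each of the 12 probes in each mouse (log2 intensity, y axis), with the 4 arrays on the x axis, circles for Cy3, squares for Cy5, open symbols where the probe was not well above background, and lines at the group means. The Pvalb panels show the arrays of replicates 3 and 4 above those of replicates 1 and 2 in both genotypes, and the Lhx6 probe A_55_P2094158 shows groups that do not overlap.

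The patterning factors come first. Nkx2-1, the homeobox factor of the ventral forebrain, lay between 6.97 and 7.72 in wildtype mice and between 7.17 and 7.46 in those labelled heterozygous. Its probe lies at chr12:57633119-57633178 (mm9, minus strand). All 4 values labelled heterozygous fell inside the wildtype range. The difference of 0.07 (SE 0.43, 95% interval −0.90 to 1.04) had an adjusted p of 0.991. Of the 10 spots of this probe, 2 in heterozygous replicate 3 and between 5 and 10 in the other samples were well above background. The SD between spots of 1 sample was 0.24 to 0.59. As the level of a sample is the mean of its spots, this SD does not measure the error of the genotype difference.

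**Figure D2:**
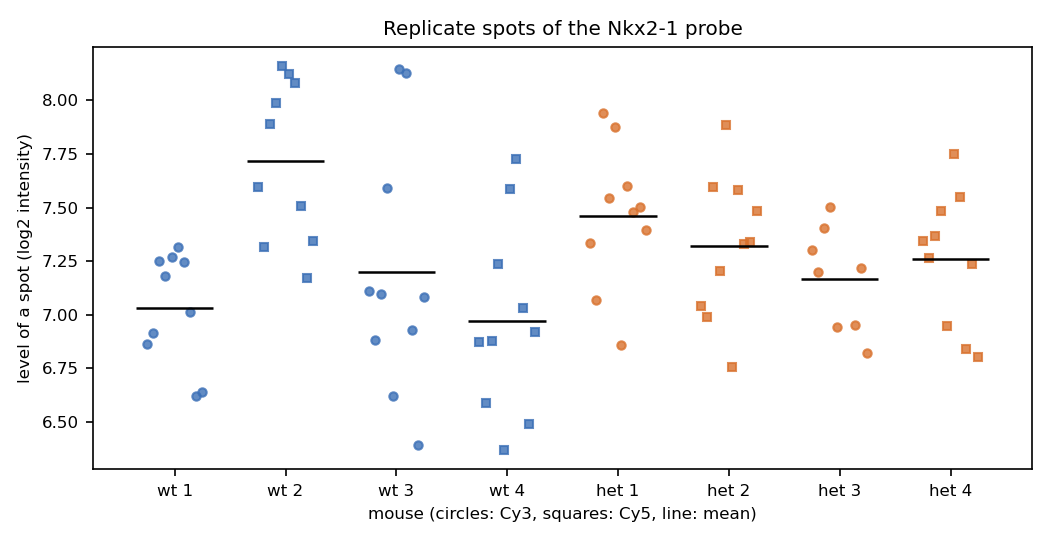
Level of each spot of the Nkx2-1 probe (log2 intensity, y axis) in each mouse (x axis), circles for Cy3, squares for Cy5, lines at the mean of the spots. The spots of wildtype replicate 3 run from 6.39 to 8.14, wider than the range of the 8 sample means, which lie between 6.97 and 7.72.

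The 3 probes of Lhx6, the LIM-homeobox factor that MGE-derived interneurons keep into adulthood, did not give 1 answer. A_55_P2094158 (chr2:35937470-35937529, mm9, minus strand) read 8.0, 8.11, 8.11 and 7.54 in wildtype replicates 1 to 4. It read 8.98, 8.99, 8.38 and 8.42 in heterozygous replicates 1 to 4. Every mouse labelled heterozygous was above every wildtype mouse, and heterozygous replicates 1 and 2, which share an array, were the highest. The means were 7.94 ± 0.27 and 8.69 ± 0.34 (SD, n = 4 each), a difference of 0.75 (SE 0.38, 95% interval −0.10 to 1.60). The limma fit gave an adjusted p of 0.689. A two-sided exact permutation over samples gave p = 0.0286 and over arrays p = 0.333, each the smallest that the design allows, where the limma fit gave an unadjusted p = 0.0768. The difference was 0.63 among Cy3 samples and 0.88 among Cy5 samples. Of all probes tested, 8.01% likewise had groups that did not overlap with the higher values in mice labelled heterozygous. This difference ran from 0.38 (with the scanner's processed signals) to 1.04 (without the array of heterozygous replicates 3 and 4) over 26 alternatives, with adjusted p of 0.102 to 0.999 and an unadjusted p under 0.05 in 8 of them.

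The brightest Lhx6 probe, A_55_P2005903 (chr2:35937644-35937703, mm9, minus strand), lies close by on the same strand and leaned the other way. It read 14.80, 14.80, 15.20 and 15.39 in wildtype replicates 1 to 4. It read 14.54, 14.70, 14.92 and 14.83 in heterozygous replicates 1 to 4. The groups overlapped, and wildtype replicates 3 and 4, on 1 array, were the highest. The difference was −0.30 (SE 0.27, 95% interval −0.92 to 0.32, adjusted p = 0.881). With the scanner's processed signals it was 0.01. The last 29 bases of this probe are the alternating run printed above. Of all probes, 24 (0.0609%) hold such a run of at least 20 bases, and all 24 were well above background in all 8 samples, as against 40.2% of all probes. The same was found for 52 of 52 probes with an alternating run of G and T, the complement on the other strand. How much of this probe's signal comes from Lhx6 was not tested.

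The remaining Lhx6 probe, A_55_P2094149 (chr2:35958379-35958438, mm9, minus strand), lies upstream of the other 2, from base 601 of the transcript it is listed under, against bases 3251 and 3425 for the others. It read between 6.03 and 6.32 in the 8 mice and was well above background in 0 of them. It was not tested, and it is the Lhx6 probe printed whole above.

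Lhx8 (probe A_51_P298615, chr3:153969377-153969436, mm9, minus strand), the LIM-homeobox factor of forebrain cholinergic neurons, read 9.51, 9.98, 9.58 and 8.96 in wildtype replicates 1 to 4. It read 9.54, 9.15, 10.02 and 9.78 in heterozygous replicates 1 to 4. The groups overlapped through most of their range, and mice within 1 genotype differed by more than the group means. The difference was 0.11 (SE 0.50, 95% interval −1.01 to 1.24, adjusted p = 0.985). It was −0.40 between the arrays of replicates 1 and 2 and 0.63 between those of replicates 3 and 4.

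Sox6 (probe A_52_P475356, chr7:122615418-122615477, mm9, minus strand), an SRY-box factor needed for the maturation of MGE-derived interneurons, was dim. It read 7.33, 7.49, 6.90 and 6.90 in wildtype replicates 1 to 4 and 7.32, 7.27, 7.46 and 7.20 in heterozygous replicates 1 to 4. The 2 low values were both mice of 1 wildtype array. The difference was 0.16 (SE 0.28, 95% interval −0.48 to 0.80, adjusted p = 0.957), and −0.09 without that array. Sox6 was well above background in 6 of 8 samples, the exceptions being wildtype replicate 3 and heterozygous replicate 3.

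The markers of the adult types follow, and among them Pvalb had by far the widest spread between mice. Its brighter probe, A_55_P2114437 (chr15:78021951-78022010, mm9, minus strand), read 11.48, 10.80, 14.16 and 14.81 in wildtype replicates 1 to 4. It read 12.51, 11.53, 14.50 and 14.81 in heterozygous replicates 1 to 4. In both genotypes replicates 3 and 4 lay above replicates 1 and 2, with no overlap. Between the 2 arrays of a genotype this was a gap of 3.34 in wildtype mice (10.1-fold) and of 2.64 in those labelled heterozygous (6.21-fold). The second probe, A_55_P2059040 (chr15:78021549-78021608, mm9, minus strand), read 7.91, 7.26, 11.14 and 11.68 in wildtype and 9.50, 8.28, 10.95 and 11.28 in heterozygous replicates 1 to 4. Its gaps were 3.83 (14.2-fold) and 2.22 (4.67-fold), so both probes of Pvalb told the same mice apart.

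Between the genotypes Pvalb did not differ beyond this spread. The means of the brighter probe were 12.81 ± 1.97 and 13.34 ± 1.58 (SD, n = 4 each), a difference of 0.53 (SE 1.23, 95% interval −2.26 to 3.32, adjusted p = 0.969). The second probe gave 0.50 (SE 1.29, 95% interval −2.42 to 3.43, adjusted p = 0.971). These intervals span several-fold changes in either direction, so a moderate difference was not detectable. Which arrays were used decided the sign. For the brighter and the second probe the difference was 2.20 and 2.42 when wildtype replicates 3 and 4, which share an array, were left out. It was −1.14 and −1.41 when wildtype replicates 1 and 2 were left out. Without the array of heterozygous replicates 3 and 4 it was −0.79 and −0.61, and without that of heterozygous replicates 1 and 2 it was 1.84 and 1.62. Set against each other by replicate numbers, the arrays of replicates 1 and 2 differed by 0.88 and 1.31 and those of replicates 3 and 4 by 0.17 and −0.30.

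**Figure D3:**
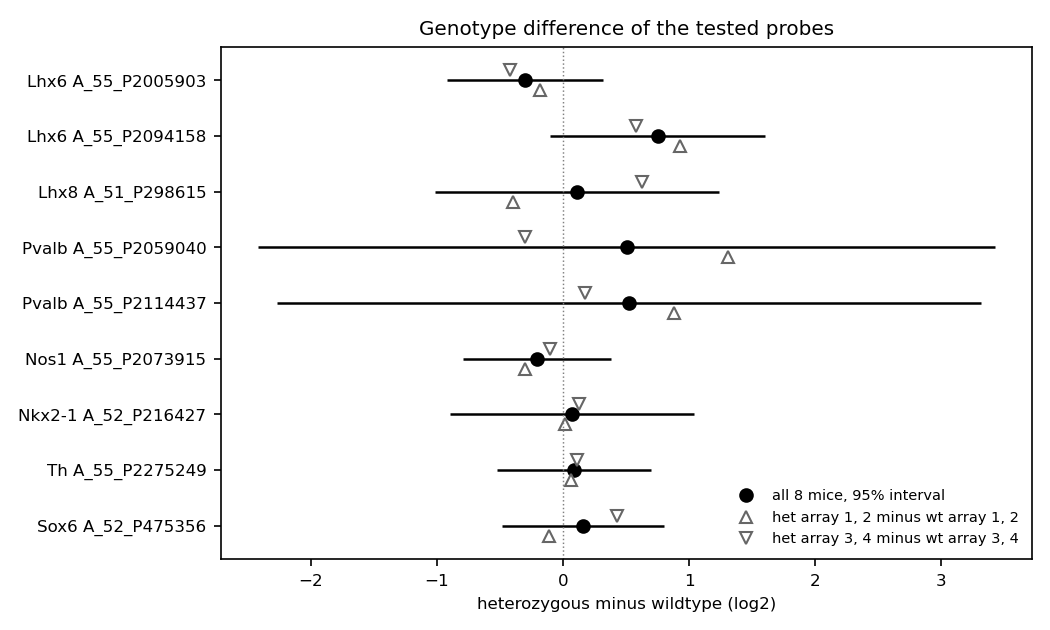
Difference between mice labelled heterozygous and wildtype mice (log2, x axis) for the 9 probes tested, with the 95% interval of the fit over all 8 mice (filled circles and bars) and the difference of the array means by replicate number (open triangles). Every interval covers 0, and the intervals of the Pvalb probes, from −2.42 to 3.43 and from −2.26 to 3.32, are the widest.

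A gap between arrays of this size was rare. The median absolute gap over all probes tested was 0.35 between the wildtype arrays and 0.32 between the others. A gap at least as large as that of the brighter Pvalb probe was found in 27 probes (0.147%) for wildtype mice and in 42 (0.228%) for those labelled heterozygous. Only 15 probes of 12 genes (0.0815% of those tested) were at least 4-fold higher on the arrays of replicates 3 and 4 in both genotypes. Beside both Pvalb probes these read Ttr, Aqp1, Folr1 and Kcnj13, which are known from the choroid plexus, Prkcd, a protein kinase C isoform abundant in the thalamus, Rn18s, the 18S ribosomal RNA, Scn3a, a sodium channel subunit, and Ramp3, Frem3, Rab37 and Patj. These genes were listed after their values were seen, by the size of the gap alone. The other 7 member probes had gaps of 0.58 or less in size in both genotypes.

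Markers of other regions and of glia were read across the same arrays. Of 6 thalamic marker genes tested, 6 were higher on the arrays of replicates 3 and 4 in both genotypes, as against 26.8% of all probes. Prkcd had gaps of 3.36 and 4.30 and Ntng1, netrin-G1 of thalamic projection neurons, gaps of 2.82 and 1.60. The summed level of the thalamic list was 11.45 and 11.74 in wildtype replicates 1 and 2 but 13.22 and 14.91 in replicates 3 and 4. In heterozygous replicates it was 11.39 and 11.45, then 12.92 and 14.72. Prkcd alone read 14.20 in wildtype replicate 4 and 14.35 in heterozygous replicate 4, so the sum says little of the other genes. Among these, Lef1 had gaps of 2.42 and 0.46 and Gbx2 of 1.16 and 0.84. Rora had gaps of 0.46 and 0.90, and Tcf7l2 of 0.28 and 0.63. The choroid plexus and ependyma list ran from 10.82 to 17.46 in wildtype mice and from 12.91 to 17.29 in those labelled heterozygous, with 5 of its 7 genes higher on the later-numbered array in both. Its main gene Ttr, transthyretin, had gaps of 8.01 and 3.64. The septal, pallidal and basal forebrain list, without its member genes, summed to 14.68 to 14.99 and 14.38 to 14.65. Most of that sum was Sst, also an interneuron gene, with means of 14.60 and 14.36 and gaps of −0.26 and 0.04. The sum therefore says little of the other genes of the list. Among these, Zic1 had gaps of 2.08 and 2.00, Npas1 of 1.19 and 0.58, and Gbx1 of 0.31 and 0.62. Zic4 had gaps of 1.36 and −0.19, and Trpc4 of −0.88 and −1.04. Of 5 oligodendrocyte genes tested, 5 were higher on the arrays of replicates 3 and 4 in both genotypes, by a median of 0.42 and 0.30, and summed to 15.05 to 15.96 in wildtype mice and 15.25 to 15.87 in those labelled heterozygous. Of 6 astrocyte genes, 4 were higher in both, by a median of 0.38 and 0.15, with sums of 16.42 to 16.81 and 16.29 to 16.66. Of 11 genes of striatal projection neurons, 0 were higher on the array of wildtype replicates 3 and 4 (median gap −0.32). In mice labelled heterozygous, 7 of them were higher on that of replicates 3 and 4 (median gap 0.016). Of 9 cortical genes, 3 were higher in wildtype mice and 4 in those labelled heterozygous, with median gaps of −1.20 and −0.15. The part of other regions and of glia in the Pvalb signal was not tested.

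**Figure D4:**
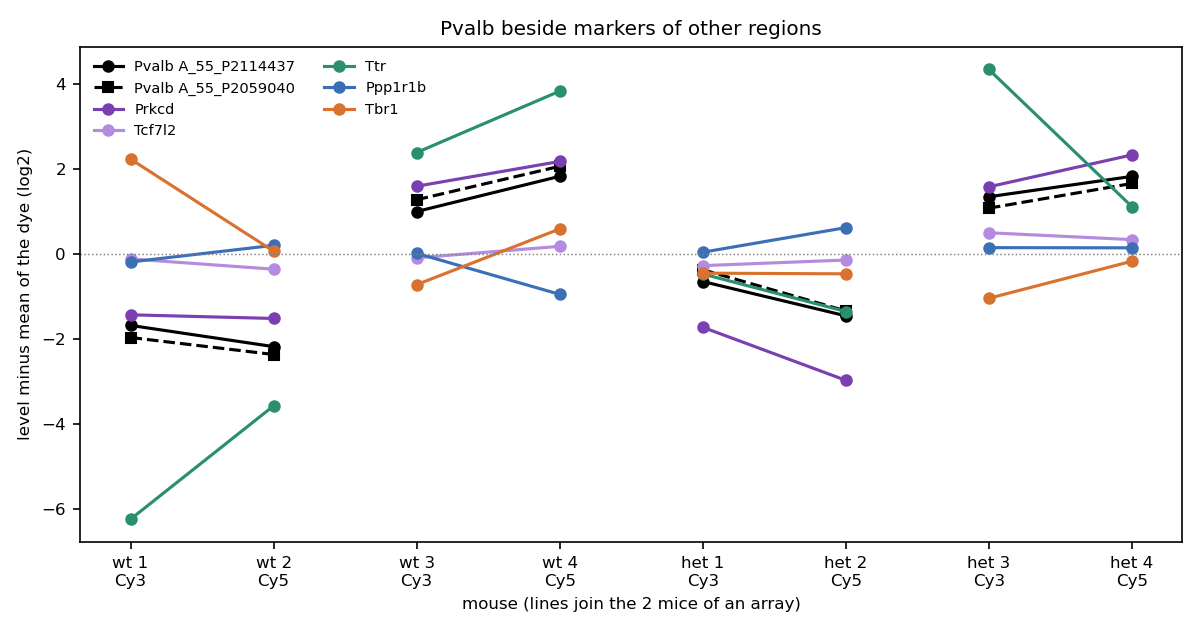
Level of both Pvalb probes (black) and of markers of thalamus (Prkcd, Tcf7l2), choroid plexus (Ttr), striatal projection neurons (Ppp1r1b) and cortex (Tbr1) in each mouse, minus the mean of the samples of the same dye (log2, y axis), with lines joining the 2 mice of an array. Pvalb, Prkcd and Ttr are below 0 in replicates 1 and 2 and above 0 in replicates 3 and 4 of both genotypes. Tcf7l2 departs from that split in wildtype replicate 3, which is below 0, and Ppp1r1b and Tbr1 do not follow it.

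Other genes of fast-spiking cells took part unevenly. Of 12 tested, 6 were higher on the arrays of replicates 3 and 4 in both genotypes, as against 26.8% of all probes. Among those with a gap in the same direction, chosen after their values were seen, Kcnc2, a fast potassium channel subunit, had gaps of 1.57 and 2.25, and Cox6a2, a cytochrome oxidase subunit, gaps of 1.25 and 0.84. Kcnc1, another potassium channel subunit of fast-spiking cells, had gaps of 0.00 and −0.20. Kit, a receptor tyrosine kinase, was lower on those arrays, at −1.81 and −0.70.

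Nos1 was measured by 1 of its 2 probes. A_55_P2073915 (chr5:118404306-118404365, mm9, plus strand) read 7.85, 7.81, 7.65 and 7.50 in wildtype replicates 1 to 4. It read 7.69, 7.37, 7.44 and 7.50 in heterozygous replicates 1 to 4. The groups overlapped and every mouse lay between 7.37 and 7.85. The difference was −0.20 (SE 0.26, 95% interval −0.79 to 0.38, adjusted p = 0.933). The second probe, A_55_P2133795 (chr5:118402831-118402890, mm9, plus strand), printed above, read between 6.41 and 6.77 and was well above background in 1 of 8 samples, heterozygous replicate 2.

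Of the 9 probes tested, that of Th had the narrowest range over the 8 mice. The probe A_55_P2275249 (chr7:150078703-150078762, mm9, minus strand) read 10.860, 11.049, 10.994 and 10.719 in wildtype replicates 1 to 4. It read 11.039, 11.001, 11.009 and 10.933 in heterozygous replicates 1 to 4. The values labelled heterozygous lay inside the wildtype range. The means were 10.906 ± 0.147 and 10.996 ± 0.045 (SD, n = 4 each), and the difference of 0.09 (SE 0.27, 95% interval −0.52 to 0.70) had an adjusted p of 0.978. Over 26 alternatives it ran from 0.02 to 0.26. Of 10 listed genes of midbrain dopamine neurons, 6 were tested, Th among them. Beside Th, Aldh1a1 and Ddc were well above background in 8 samples each, Pitx3 and Lmx1b in 7 each and Slc18a2 in 6. These counts take the probe of a gene with the most such samples, which need not be the tested probe. Lmx1a, En1 and Foxa2 were well above background in 0 samples, and the dopamine transporter Slc6a3 in 1. Dbh, dopamine beta-hydroxylase of noradrenergic cells, was well above background in 0.

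Calb2 was not well above background in 6 of 8 samples. Its single probe, A_52_P556433 (chr8:112678555-112678614, mm9, minus strand), read 6.35, 7.00, 6.26 and 7.54 in wildtype replicates 1 to 4. It read 6.71, 6.49, 6.29 and 6.26 in heterozygous replicates 1 to 4. The 2 samples in which it was well above background were wildtype replicates 2 and 4, both Cy5. Without the filter on dim probes the difference was −0.35 (SE 0.52), and with the filter it was not tested.

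The wider gene lists of each interneuron type showed no group that passed the test. None of their genes had an adjusted p under 0.05 with limma. Every median below is to be read against −0.017 for all probes tested. Every count at an unadjusted p under 0.05 is to be read against 7.96% of those probes. The lists include members, and each gene stands by its tested probe with the highest mean. Of 11 MGE-derived interneuron factors tested, Lhx6, Sox6 and Nkx2-1 among them, 4 were higher and 7 lower in the mice labelled heterozygous. Of these, 0 were at an unadjusted p under 0.05, and the median was −0.30. That median is the value of the repeat-bearing Lhx6 probe, whose share of Lhx6 signal was not tested. The other tested Lhx6 probe, at 0.75, is not in these counts. In this list Maf, a factor of MGE-derived interneurons, differed by 0.56 (SE 0.26) and Nxph1, neurexophilin 1, by −0.57 (SE 0.33). Of 7 genes of GABAergic identity tested, 2 were higher and 5 lower, with 0 at that threshold and a median of −0.17. Slc32a1, the vesicular GABA transporter, had the lowest p of the list and stood at 0.93 (SE 0.44), and Dlx2, a homeobox factor of GABAergic precursors, at −0.69 (SE 0.50). Gad1 and Gad2, the GABA-making enzymes, were well above background in all 8 samples but had outlier spots and were not tested.

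Of 12 genes of fast-spiking interneurons, 7 were higher and 5 lower, with a median of 0.07 and 1 at an unadjusted p under 0.05. That gene was Hapln1, a link protein of the perineuronal net, at 0.69 (SE 0.28). Opn3, an opsin, had the largest difference of the list at 2.15 (SE 0.95), which came from 1 array. It read 12.03 and 12.20 in heterozygous replicates 1 and 2, and between 7.88 and 8.66 in the other 6 mice. Eya4, a transcriptional coactivator, stood at −0.47 (SE 0.24) and Kcnc1 at −0.34 (SE 0.24). The summed level of this list without Pvalb was 12.87 to 13.71 in wildtype mice and 13.08 to 13.52 in those labelled heterozygous.

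Of 5 genes of the somatostatin, neuropeptide Y and Nos1 type tested, 1 was higher and 4 lower, with 0 at an unadjusted p under 0.05 and a median of −0.20. Sst, somatostatin, stood at −0.25 (SE 0.27) with a mean of 14.60 ± 0.18 in wildtype mice and 14.36 ± 0.07 in mice labelled heterozygous (SD, n = 4 each). Npy was well above background in all 8 samples but not tested because of outlier spots, and Chodl, a defining marker of this type, was well above background in 0. Of 6 genes of catecholamine synthesis and Th cells, 2 were higher and 4 lower, with a median of −0.16. Slc18a2, the vesicular monoamine transporter, stood at −0.73 (SE 0.47) and Ddc, which makes dopamine from L-DOPA, at −0.21 (SE 0.25). The 1 gene at an unadjusted p under 0.05 was Trh, thyrotropin-releasing hormone. It read 7.41 to 8.55 in wildtype mice and 9.06 to 9.30 in those labelled heterozygous. The difference was 1.13 (SE 0.32, adjusted p = 0.462 with limma). Groups without overlap and with mice labelled heterozygous higher were found for 8.01% of all probes tested.

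Of 6 genes of calretinin cells and their caudal ganglionic eminence (CGE) relatives, 2 were higher and 4 lower, with 0 at an unadjusted p under 0.05 and a median of −0.22. Sp8, a zinc finger factor, stood at 0.42 (SE 0.40) and Vip, vasoactive intestinal peptide, at −0.35 (SE 0.92). Adarb2, a marker of these cells, was well above background in 0 samples. For comparison, of 9 cholinergic genes, Lhx8 among them, 4 were higher and 5 lower, with a median of −0.31 and 1 at an unadjusted p under 0.05, Chat. Slc5a7, the choline transporter, stood at −0.37 (SE 0.42) and Isl1, a LIM-homeobox factor of these cells, at 0.32 (SE 0.33).

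**Figure D5:**
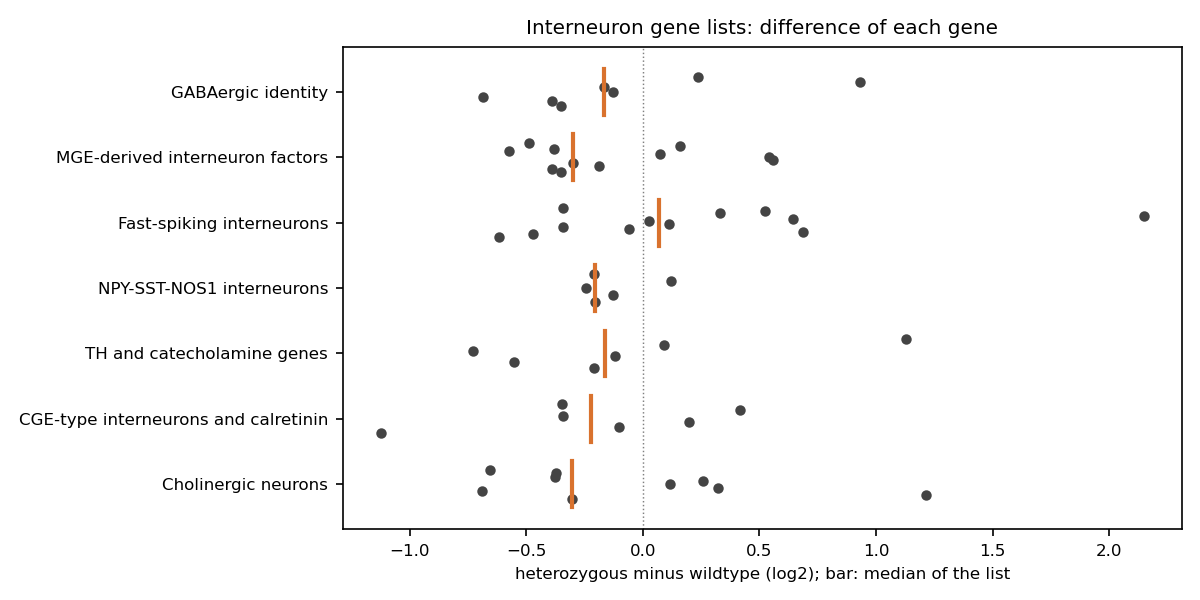
Difference between mice labelled heterozygous and wildtype mice (log2, x axis) of each tested gene in 7 interneuron lists (y axis), 1 point per gene, with a bar at the median of the list. Medians lie between −0.31 and 0.07, and the point at 2.15 is Opn3.

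Markers of projection neurons and cortical neurons are set beside these values, and none of them had an adjusted p under 0.05 with limma. The summed level of the 11 tested genes of striatal projection neurons was 16.79 to 17.84 in wildtype mice and 17.90 to 18.32 in those labelled heterozygous. Most of that sum was Ppp1r1b and Penk, and the 2 ranges nearly touch. Of all probes tested, 16.9% had groups without overlap. Of the 11 genes, 7 were higher in the mice labelled heterozygous, with 1 at an unadjusted p under 0.05. Of 9 genes of cortical excitatory neurons, 1 was higher and 8 lower, with 0 at that threshold and a median of −0.95. Their summed levels overlapped, at 11.64 to 13.93 and 11.30 to 12.09. Of all probes tested, 48% were higher and 7.96% were at an unadjusted p under 0.05. The part of these mixtures in the interneuron values was not tested.

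The genes whose pattern over the 8 mice lay nearest to each member were found by the root mean square distance of log2 values, after the mean of each dye was taken off. Nearest to the brighter Pvalb probe were Rab37 at 0.26 and Patj at 0.38, against a spread of 1.56 for Pvalb itself. Nearest to Lhx8 were Cntnap3 at 0.13 and Gdf9 at 0.13, against 0.33 for Lhx8. For the repeat-bearing Lhx6 probe they were Cnot4 at 0.037 and Izumo1r at 0.043, against 0.25 for the probe itself. They were Itprip at 0.03 and Cystm1 at 0.046 for Th, with a spread of 0.10, and Ncmap at 0.06 and Arsk at 0.061 for Nos1, with 0.15. For Nkx2-1 they were Gpr149 at 0.064 and Fndc9 at 0.079, with 0.22, and for Sox6 Wdtc1 at 0.051 and Zfp975 at 0.062, with 0.21.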

How the data were processed

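The scanner files that the authors deposited hold each spot's raw signal and local background as intensity, read by Agilent Feature Extraction 11.0.1.1, per the file headers. The deposited value table holds a ratio, the median signal minus background over the column's median. No header states this, and 100% of its values were equal to that quotient within rounding. It was used only as an alternative. Log2 levels were computed here with limma 3.58.1 in R 4.3.3: normexp (offset 50), loess within arrays, Aquantile between arrays, control and outlier spots left out, spots of a probe averaged, own channel of each sample. The fit had genotype and dye, with array as a random block (correlation 0.81), with Benjamini-Hochberg adjustment over the 18399 probes tested. Intervals treat the mice of an array as correlated, not as 1 unit, and may be too narrow. Samples are separate mice. Signal over background was lower in Cy5 (3.75 to 5.30) than in Cy3 (6.48 to 10.5), which limits dim probes, and the number of arrays limits precision. Coordinates are the files' own, on mm9. Fits were tested on simulated data. The members and gene lists were chosen with earlier results of these data known, so they are no independent support. Named genes are all member probes, up to 4 genes per interneuron list by unadjusted p, the first 2 of each other list and the 2 nearest in pattern, of which a portion is named. Genes singled out for gaps between arrays, or as not above background, were picked after their values were seen. Levels of different probes are not comparable. The values of 1 list gene are not reported here.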

Additional observations from a re-analysis of the deposited data

How the results depend on the processing

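Each value was recomputed under up to 26 alternatives, 1 of them, the removal of a spatial trend of each array, chosen after seeing the data. No member passed the adjusted threshold in any of them. The number of probes called was 1 with the authors' value table and 529 without the array block, and ran from 0 to 17 when a replicate or an array was left out (17 without the array of wildtype replicates 1 and 2, 14 without that of wildtype replicates 3 and 4, 5 without that of heterozygous replicates 3 and 4, 1 without wildtype replicate 4). One member, the Lhx6 probe A_55_P2094158, was at an unadjusted p under 0.05 without the filter on dim probes, without the dye covariate, without the array block, in the separate-channel model, with the replicate block and within Cy5 (1 member each). Leaving out a replicate or an array gave 0 to 1, the 1 being that probe or, without the array of wildtype replicates 3 and 4, the second Pvalb probe. The members' median moved to 0.27 with the scanner's processed signals and to 0.31 with probes above background in all 8 samples, and ran from −0.16 to 0.26 over replicates and arrays left out. The replicate numbers are not stated to pair mice, and deviations of same-numbered mice correlated at 0.039, 0.26, 0.16 and 0.12 across probes, with 4 of 8 samples closest to their own number. With the replicate block, 0 probes were called. Single values changed sign as follows: with the processed signals, the repeat-bearing Lhx6 probe (0.012) and the brighter Pvalb probe (−0.23); with the spatial trend removed, Nos1 (0.18) and Sox6 (−0.052); within Cy5, Lhx8 (−0.0066) and Nkx2-1 (−0.055). With replicates or arrays left out, Lhx8 ran from −0.16 to 0.39, Nkx2-1 from −0.10 to 0.26, the brighter Pvalb probe from −1.14 to 2.20, the second from −1.41 to 2.42, and Sox6 from −0.090 to 0.41. The cause of these changes was not tested. Dim members (Nos1, Nkx2-1, Sox6, Calb2) are limited by signal over background.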
